A study of Homo sapiens with 6 samples.

Results

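The short hairpin RNAs shRNA2 and shRNA1, both against SMARCD2, were compared directly with each other in NB4 cells, a human acute promyelocytic leukemia line. The comparison used the 4 knockdown libraries among the 6 RNA-seq libraries of the study, 2 with shRNA2 and 2 with shRNA1. Each hairpin was sequenced once in cells given 1 µM all-trans retinoic acid (ATRA) and once in cells given the vehicle DMSO. The groups were thus shRNA2 with ATRA, shRNA2 with DMSO, shRNA1 with ATRA and shRNA1 with DMSO. A control construct with ATRA and with DMSO, called CTRL or scr in the labels, made up the other 2 libraries, and its value is given beside the hairpins for each gene. All 6 libraries came from the same cell line, and each group is 1 library made from 1 culture condition. The labels do not say whether the ATRA and DMSO libraries of a hairpin share transduced cells or give the hairpin sequences. No group has a second library, so the spread behind every p-value below is not one between replicates. It is how far the construct differences vary between ATRA and DMSO, together with spread borrowed from other genes. Part of it may be technical, and a true change of a difference with treatment counts as error.

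SMARCD2 is a subunit of the BAF (SWI/SNF) complex, which uses ATP to move and evict nucleosomes. It is 1 of 3 alternative SMARCD subunits, with SMARCD1 and SMARCD3, and it is needed for neutrophil granule formation. A short hairpin RNA is cut into a small interfering RNA that directs Argonaute proteins to a matching transcript. A hairpin can also lower transcripts that match only its seed, and different hairpins against a gene have different seeds. Genes that follow the depth of the knockdown are therefore usually separated from genes that move with 1 hairpin by comparing hairpins of unequal strength.

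The shRNA2 libraries held 44370146 counts in ATRA and 41846630 in DMSO. The shRNA1 libraries held 51324652 and 58099733 counts, and the control libraries held 29521141 and 29291209. Each total is the sum of 2 sequencing runs, and run 1 gave 71.4% and 70.6% of the shRNA2 libraries, 75.9% and 80.7% of the shRNA1 libraries and 53.1% and 54.7% of the control libraries, in ATRA and DMSO in each case. The myeloid identity of the line was visible in every library. MPO, the myeloperoxidase gene of promyelocytes, stood at 5764 CPM with shRNA2, 5251 with shRNA1 and 4298 in the control in ATRA, and at 9989, 10040 and 9866 CPM in DMSO (CPM, counts scaled to library size).

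SMARCD2 itself was lower with shRNA2 than with shRNA1 in both treatments. In ATRA it stood at 35.6 CPM with shRNA2, 64.2 with shRNA1 and 122 in the control, and in DMSO at 25.7, 39.0 and 95.5 CPM. The 3 constructs kept the same order in both treatments, and both shRNA2 libraries lay below both shRNA1 libraries. The log2 fold change of shRNA2 against shRNA1 was -0.73 ± 0.07 (SE, n = 2 against 2, adjusted p = 3.0e-06, edgeR quasi-likelihood test). Against the control it was -1.84 ± 0.09 with shRNA2 (adjusted p = 6.5e-04) and -1.11 ± 0.09 with shRNA1 (adjusted p = 0.024). Of the paralogs, SMARCD3 had 6.51, 8.04 and 13.3 CPM with shRNA2, shRNA1 and the control in ATRA, and 29.1, 35.3 and 40.2 CPM in DMSO. Its values had the same order as those of SMARCD2, but the hairpin difference of -0.29 ± 0.09 did not pass (adjusted p = 0.14). SMARCD1 differed by 0.12 ± 0.06 between the hairpins (adjusted p = 0.51) and was not ordered by knockdown.

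The hairpins differed in a small part of the transcriptome, with more genes higher than lower with shRNA2. Of 12300 genes tested over the 4 knockdown libraries, 250 were called at an adjusted p under 0.05 (2.03%). Of these, 160 were higher with shRNA2 (1.3%) and 90 were lower (0.732%). The called differences were mostly small, with a median absolute log2 fold change of 0.41, and 71 genes reached 1.5-fold. At 2-fold or more, 15 genes were higher and 3 were lower, which were MARC1, CD8A and PCLO, the last with under 1 CPM in all 6 libraries. In 246 of the 250 genes the ATRA and DMSO values had the same sign, which the fit itself favours, since it tests the difference shared by both treatments. Over all genes tested the share was 55.5%, and nothing is read from the comparison. The other 4 were C10orf105, COL6A1, ITGA7 and MYO7B, each with the sign of its fold change in the treatment where it was more abundant. CD8A, PCLO and these 4 genes were chosen after their values were seen.

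The count depended on which libraries entered the fit. When the control libraries entered the same fit, edgeR called 0 genes between the hairpins, with 820 at an unadjusted p under 0.05, against 1380 in the 4 libraries, and a smallest adjusted p of 0.059. The median standard error was 0.082 with the control libraries and 0.073 without them. The prior degrees of freedom, by which edgeR borrows the spread of other genes, were 5.87 with the control libraries and 22.1 without them. The p-values from the 4 libraries therefore rest mainly on that prior, beside 1 residual degree of freedom. With DESeq2 on the 4 libraries 49 genes passed, all of them among the 250, and limma-voom gave 404, which held 223 of the 250. In the 6-library fit, 7 genes were called without shRNA2 in DMSO, 12 without shRNA2 in ATRA and 0 without either shRNA1 library, but 239 without the control in DMSO and 185 without the control in ATRA. Every call between the hairpins below is from the 4 knockdown libraries and none is kept in the 6-library fit.

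**Figure D1:**
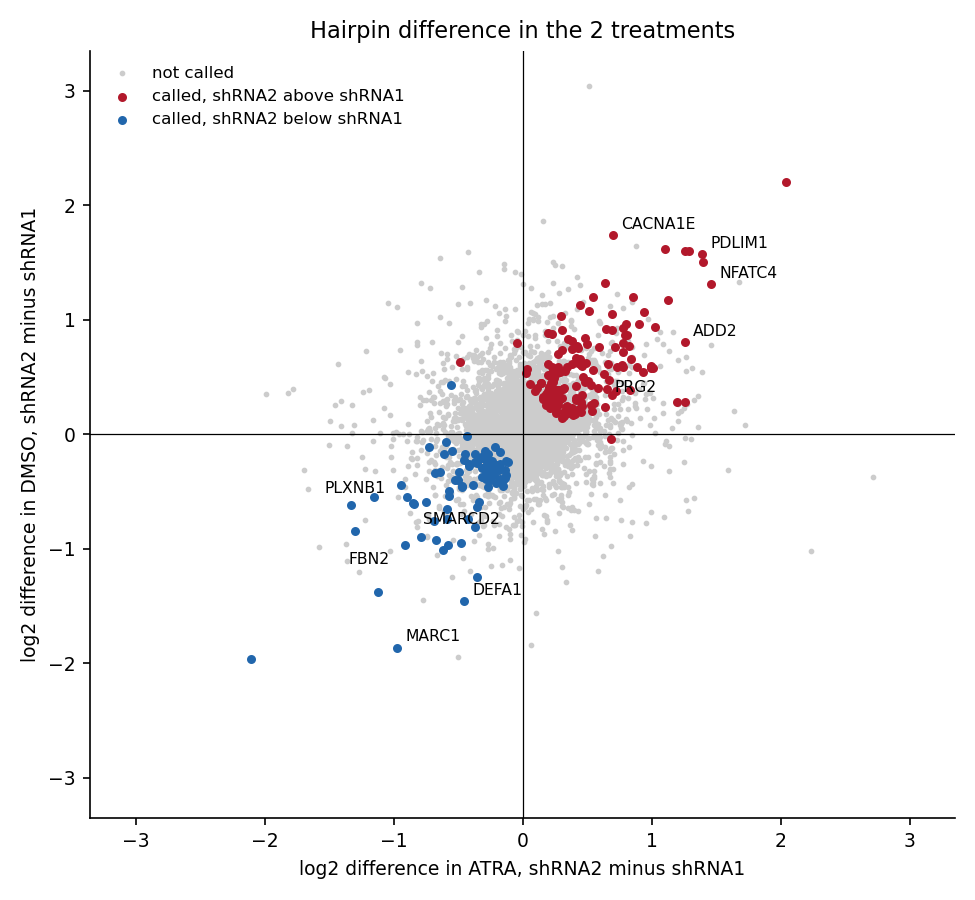
Hairpin difference per gene, as the log2 difference of shRNA2 minus shRNA1 in ATRA (horizontal axis) and in DMSO (vertical axis). Points are the 12300 genes tested, with the 160 called higher in red, the 90 called lower in blue and the rest in grey. Of the called genes, 246 of 250 lie in the quadrants where both treatments have the same sign, as a fit over both treatments favours.

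The position of the control was used to describe each called gene. The difference of the control from shRNA1 was divided by the difference of shRNA2 from shRNA1, both on the log2 CPM scale averaged over the treatments. A gene was called graded where this position was under -0.25, so that shRNA1 lay between the control and shRNA2. Between -0.25 and 0.25 shRNA1 lay near the control, between 0.25 and 0.75 the control lay between the hairpins, and within 0.25 of 1 shRNA2 lay near the control. Above that, shRNA2 lay between the control and shRNA1. Of the 250 called genes, 116 had shRNA1 near the control (46.4%), 61 were graded (24.4%), 56 had the control between the hairpins (22.4%), 16 had shRNA2 near the control (6.4%) and 1 had shRNA2 between the control and shRNA1 (0.4%). Over all genes tested the shares were 14.8%, 35.5%, 14.4%, 10.2% and 25.0% in the same order. shRNA1 enters both differences, and for most uncalled genes the hairpins hardly differ, so the positions of all genes are a description only. The placement from run 1 alone and from run 2 alone was the same in 150 of the 250 called genes.

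**Figure D2:**
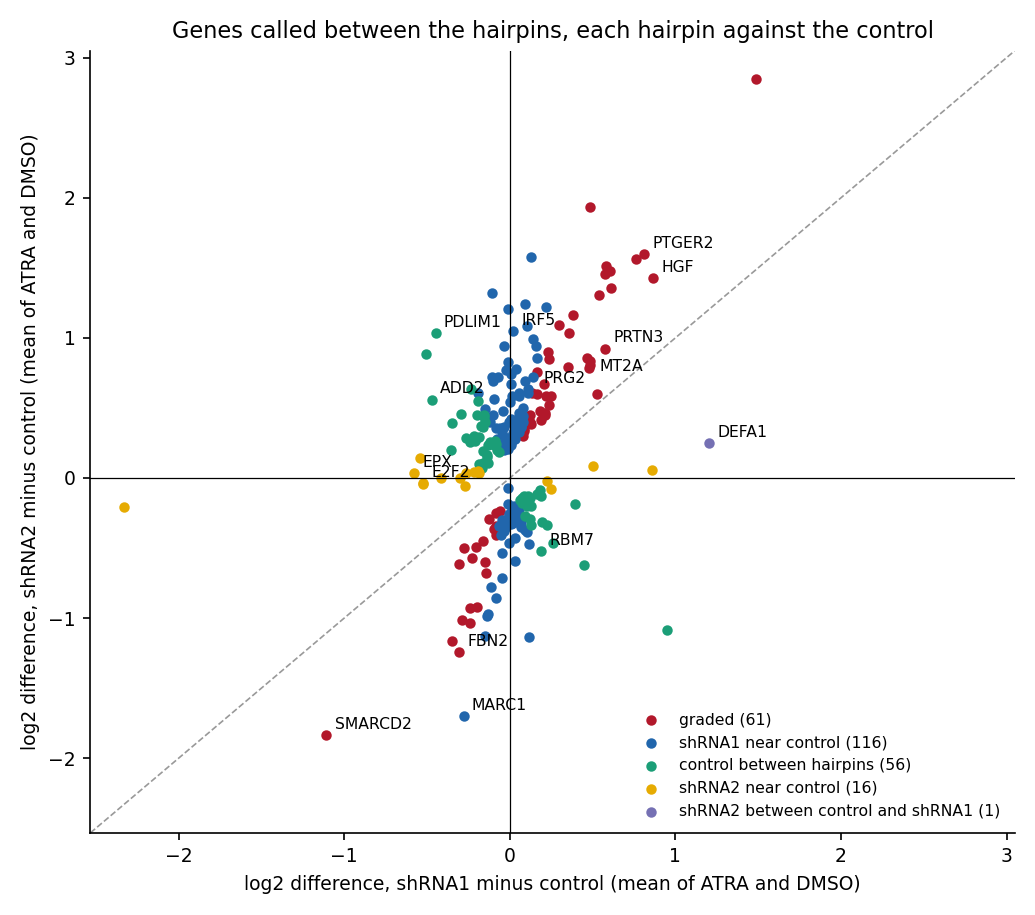
Each hairpin against the control for the 250 genes called between the hairpins, as mean log2 differences over ATRA and DMSO, with shRNA1 minus control on the horizontal axis and shRNA2 minus control on the vertical axis. Colours give the placement of the control with the number of genes in each, and the dashed line marks equal displacement by both hairpins. The largest class, 116 of 250 genes, lies along the vertical axis, where shRNA1 is near the control.

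Graded genes had shRNA1 between the control and shRNA2, the order of SMARCD2 loss, by the definition of the class. Of the 61, 41 were higher with shRNA2 and 20 lower, and 28 were graded in ATRA and in DMSO taken separately. Against the control, 13 of them were also called with shRNA2 (25 of 12301 genes called, 0.203%), and only SMARCD2 was called with shRNA1 (1 gene, 0.00813%, with 644 at an unadjusted p under 0.05 in edgeR and 12 called by DESeq2). These 2 comparisons share the control libraries. The median displacement of the graded genes by shRNA1 was 34.6% of that by shRNA2. The definition itself places shRNA2 further from the control than shRNA1, so neither these calls nor this share is separate support for the order.

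Among graded genes that were higher, PTGER2, the EP2 receptor for prostaglandin E2, had 10.0, 6.4 and 4.11 CPM with shRNA2, shRNA1 and the control in ATRA, and 3.31, 1.73 and 0.844 CPM in DMSO. The order held in both treatments, with a hairpin difference of 0.77 ± 0.16 (adjusted p = 0.0082) and a difference of shRNA2 from the control of 1.52 ± 0.20 (adjusted p = 0.044). HGF, hepatocyte growth factor, had 14.8, 11.3 and 8.22 CPM in ATRA and 99.4, 59.2 and 24.5 CPM in DMSO. It was higher with shRNA2 than with shRNA1 by 0.61 ± 0.08 (adjusted p = 5.4e-05), and by 1.55 ± 0.22 than the control (adjusted p = 0.054). PRTN3, the azurophil granule protease proteinase 3, had 411, 349 and 232 CPM in ATRA and 75.3, 54.7 and 37.0 CPM in DMSO. It was stepwise in both treatments, at 0.35 ± 0.06 between the hairpins (adjusted p = 0.0017) and 0.92 ± 0.07 for shRNA2 against the control (adjusted p = 0.0061). IRF8, a transcription factor of monocyte and dendritic cell fate, stood at 21.5, 16.9 and 15 CPM in ATRA and 35.3, 23.5 and 20.0 CPM in DMSO (0.48 ± 0.09, adjusted p = 0.0024). PLD4, an exonuclease of endolysosomes, was graded in ATRA at 62.2, 30.9 and 18.2 CPM, but in DMSO its 5.29, 3.53 and 3.96 CPM placed the control between the hairpins.

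Among graded genes that were lower, FBN2, the extracellular matrix protein fibrillin 2, had 4.07, 7.70 and 8.44 CPM in ATRA and 14, 27.4 and 38.1 CPM in DMSO. Its hairpin difference of -0.94 ± 0.11 (adjusted p = 1.2e-05) was the largest decrease among the 61 graded genes, and the value for shRNA2 against the control was -1.29 ± 0.12 (adjusted p = 0.010). SEL1L3 had 18.1, 27.9 and 34.3 CPM in ATRA and 3.83, 7.75 and 10.2 CPM in DMSO (-0.77 ± 0.11, adjusted p = 2.7e-04). The imprinted gene ZDBF2 had 9.55, 15.2 and 18.6 CPM in ATRA and 4.88, 9.29 and 10.6 CPM in DMSO (-0.79 ± 0.12, adjusted p = 4.7e-04). Both were also called for shRNA2 against the control, at -1.11 ± 0.13 for SEL1L3 (adjusted p = 0.025) and -1.03 ± 0.12 for ZDBF2 (adjusted p = 0.021). KIAA0226L, an autophagy regulator, was lower by -0.76 ± 0.12 between the hairpins (adjusted p = 6.0e-04) but did not pass for shRNA2 against the control (adjusted p = 0.054). SEL1L3 was graded in each treatment taken alone. FBN2 had shRNA1 near the control in ATRA alone, and ZDBF2 and KIAA0226L did in DMSO alone.

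**Figure D3:**
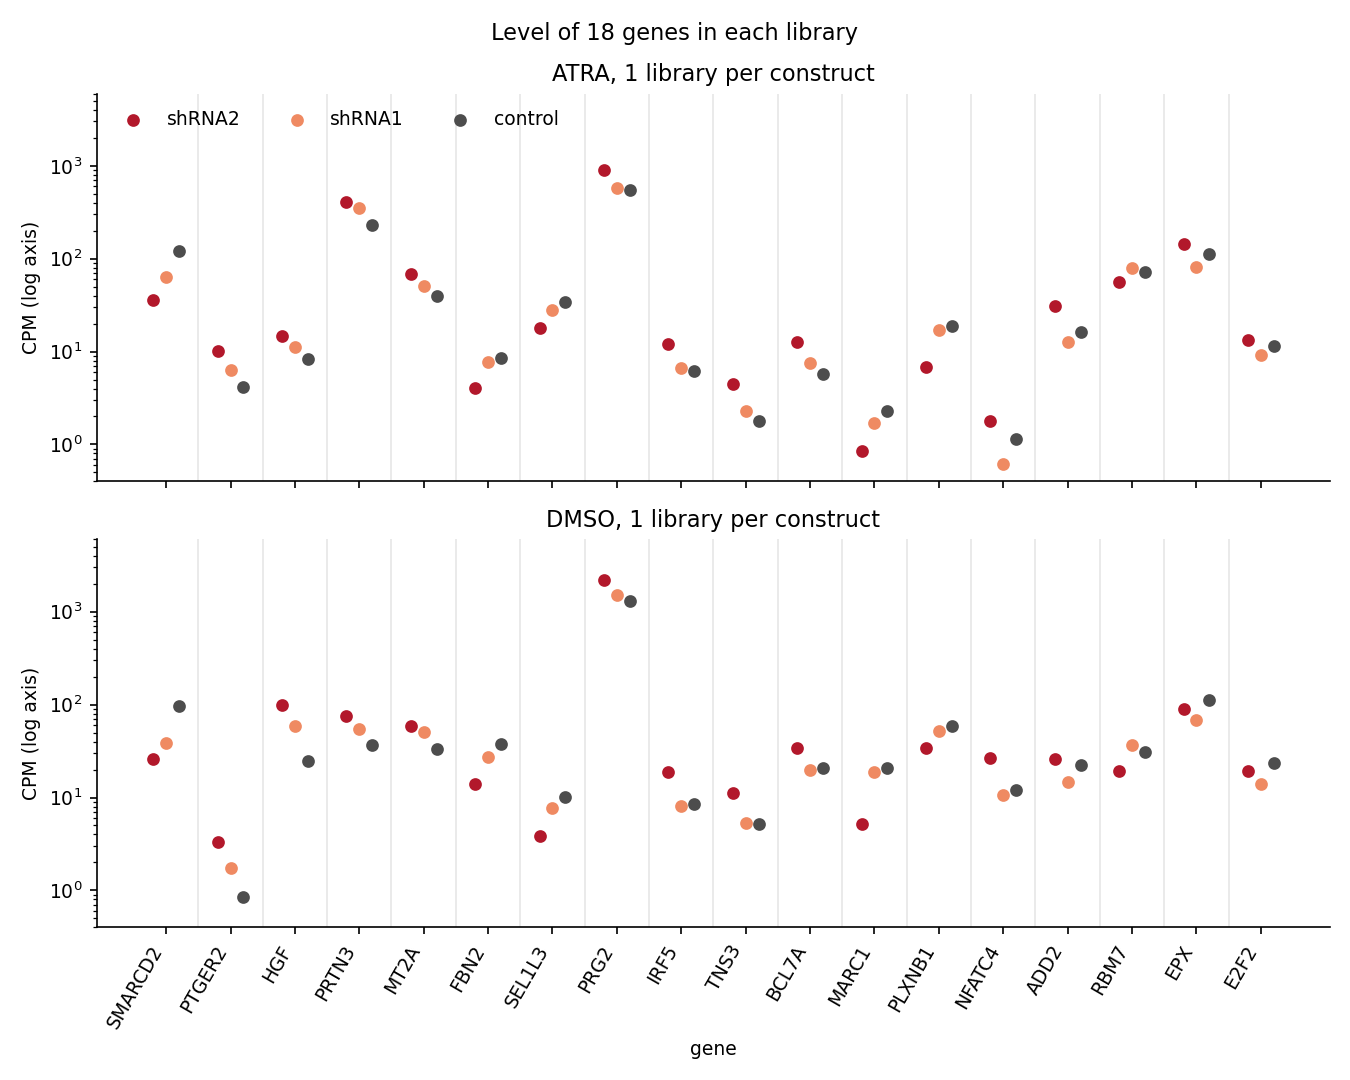
CPM on a log axis of 18 named genes in the 6 libraries, ATRA above and DMSO below, with shRNA2, shRNA1 and the control from left to right for each gene. Genes run from graded ones (SMARCD2 to SEL1L3) through those with shRNA1 near the control (PRG2 to PLXNB1) and those with the control between the hairpins (NFATC4 to RBM7) to those with shRNA2 near the control (EPX and E2F2). Placements are those of the mean over the treatments, and each point is 1 library.

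The largest class held genes that stood apart with shRNA2 while shRNA1 lay near the control. Of these 116 genes, 74 were higher with shRNA2 and 42 lower, 29 had this placement in both treatments taken separately, and 8 were also called for shRNA2 against the control. Deeper SMARCD2 loss and shRNA2 itself cannot be told apart for these genes. PRG2, the eosinophil granule major basic protein, had 901, 581 and 551 CPM with shRNA2, shRNA1 and the control in ATRA, and 2172, 1505 and 1307 CPM in DMSO. The shRNA2 library was the highest in each treatment, and the hairpin difference had the smallest adjusted p of the named genes (0.58 ± 0.04, adjusted p = 3.4e-08) and a difference from the control of 0.72 ± 0.06 (adjusted p = 0.0061). shRNA1 differed from the control by 0.14 ± 0.06 (adjusted p = 0.91), and in DMSO alone PRG2 was graded. IRF5, a transcription factor downstream of Toll-like receptors, had 12, 6.59 and 6.13 CPM in ATRA and 18.6, 8.08 and 8.47 CPM in DMSO. Its shRNA1 and control values lay side by side, and shRNA2 was above both by 1.05 on the log2 scale (1.05 ± 0.12 against shRNA1, adjusted p = 9.1e-06; 1.05 ± 0.13 against the control, adjusted p = 0.030). TNS3, the focal adhesion protein tensin 3, had 4.50, 2.32 and 1.77 CPM in ATRA and 11.2, 5.33 and 5.13 CPM in DMSO (1.03 ± 0.15 between the hairpins, adjusted p = 2.0e-04).

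Of 25 tested BAF, PBAF and ncBAF subunits outside the SMARCD family, only BCL7A was called between the hairpins, beside 2.03% of all genes. Nothing about the complex is read from this count. BCL7A had 12.8, 7.47 and 5.67 CPM in ATRA and 34.4, 19.8 and 21.0 CPM in DMSO. It was higher with shRNA2 than with shRNA1 by 0.79 ± 0.09 (adjusted p = 1.6e-05), while the difference from the control missed the threshold (0.90 ± 0.13, adjusted p = 0.057). The growth factor receptor gene FLT3 had 13.3, 7.18 and 5.85 CPM in ATRA and 35.6, 23.7 and 28.8 CPM in DMSO (0.72 ± 0.10, adjusted p = 8.3e-05). The calcium channel gene CACNA1E had 4.35, 2.67 and 2.23 CPM in ATRA and 12.6, 3.73 and 4.51 CPM in DMSO (1.31 ± 0.19, adjusted p = 1.7e-04). In all 3 genes shRNA2 was the highest library of each treatment. Other genes of this class that rose were the actin crosslinker FLNC at 0.91, BTBD11 at 0.86, the heparan sulfate proteoglycan SDC1 at 0.84 and the sugar transporter SLC2A6 at 0.81. In FLT3, FLNC and BTBD11 the control lay below shRNA1 in ATRA and between the hairpins in DMSO. The placement of these genes is that of the mean.

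Among the genes lower with shRNA2 and near the control with shRNA1, MARC1, an enzyme of the outer mitochondrial membrane, had the largest decrease of the named genes. It stood at 0.843, 1.70 and 2.30 CPM in ATRA and at 5.15, 18.9 and 20.7 CPM in DMSO. The shRNA2 library in DMSO lay well below both others, and the log2 fold change was -1.66 ± 0.18 against shRNA1 (adjusted p = 4.9e-06) and -1.86 ± 0.20 against the control (adjusted p = 0.016). PLXNB1, a semaphorin receptor, had 6.77, 17.1 and 18.8 CPM in ATRA and 34.1, 52.5 and 58.6 CPM in DMSO. It was lower with shRNA2 in both treatments (-0.90 ± 0.11, adjusted p = 2.3e-05), but the difference from the control did not pass (-1.05 ± 0.16, adjusted p = 0.063). The microtubule-associated gene NAV3 was lower by -0.84 ± 0.14 and PCOLCE2, which enhances procollagen processing, by -0.78 ± 0.16. PDIA4 and RRM2B, with similar levels in ATRA and DMSO, were also in this class. The endoplasmic reticulum chaperone gene PDIA4 had 147, 192 and 180 CPM in ATRA and 151, 205 and 200 CPM in DMSO (-0.41 ± 0.06, adjusted p = 8.6e-05). RRM2B, a p53-induced ribonucleotide reductase subunit, had 39.9, 55.1 and 56.0 CPM in ATRA and 36.8, 50.8 and 43.9 CPM in DMSO (-0.46 ± 0.07, adjusted p = 1.9e-04).

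In 56 genes the control lay between the hairpins, 33 of them higher with shRNA2 than with shRNA1 and 23 lower, and 13 had this placement in both treatments taken separately. None of the 56 was called for shRNA2 or for shRNA1 against the control. PDLIM1, an actin-associated PDZ and LIM protein, had 2.01, 0.739 and 1.21 CPM with shRNA2, shRNA1 and the control in ATRA and 13.2, 4.41 and 5.16 CPM in DMSO. Its hairpin difference was the largest increase of the named genes (1.55 ± 0.17, adjusted p = 8.3e-06). NFATC4, a calcium-responsive transcription factor, had 1.78, 0.616 and 1.13 CPM in ATRA and 26.6, 10.7 and 12 CPM in DMSO (1.36 ± 0.14, adjusted p = 3.0e-06). Both genes had the control nearer to shRNA1 than to shRNA2 in DMSO. ADD2, the membrane skeleton protein beta-adducin, had 30.6, 12.8 and 16.2 CPM in ATRA and 25.9, 14.8 and 22.6 CPM in DMSO (1.03 ± 0.10, adjusted p = 2.6e-06). RBM7, an RNA-binding subunit of the nuclear exosome targeting complex, had 56.3, 78.5 and 71.8 CPM in ATRA and 19.2, 37.0 and 31.1 CPM in DMSO (-0.69 ± 0.08, adjusted p = 1.9e-05). NOD2, a sensor of bacterial cell walls, was higher by 0.65 ± 0.17 (adjusted p = 0.046) and the Fc receptor-like gene FCRLB lower (-0.72 ± 0.15, adjusted p = 0.0062). FCRLB had 4.99, 8.06 and 9.78 CPM in ATRA, with the control above both hairpins. In DMSO it had 3.738, 6.353 and 3.635 CPM, with the control just below shRNA2. Its placement therefore came from averaging the treatments. In PDLIM1, NFATC4, ADD2, RBM7 and NOD2 the hairpins lay on opposite sides of the control in both treatments. In ADD2 and RBM7 the differences from the control were 0.56 ± 0.16 and -0.51 ± 0.11 for shRNA2. For shRNA1 they were -0.49 ± 0.16 and 0.19 ± 0.11. In DMSO alone ADD2 was placed with shRNA2 near the control.

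The Argonaute gene AGO1, whose protein can carry hairpin-derived small RNAs, was also in this class. It had 398, 479 and 378 CPM in ATRA and 35.9, 40.3 and 45.3 CPM in DMSO, and its hairpin difference was -0.22 ± 0.06 (adjusted p = 0.045). The control was below both hairpins in ATRA and above both in DMSO, so the placement came from averaging the treatments. It was the only called gene of 13 tested for small RNA processing, beside 2.03% of all genes. None of the 12 tested genes of double-stranded RNA sensing was called, and nothing about either list is read from these counts. The median log2 fold change of the sensing genes was 0.019, with the sensor DDX58 at 0.16 (adjusted p = 0.36) and the adaptor TICAM1 at -0.18 (adjusted p = 0.83).

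shRNA2 lay near the control, with shRNA1 apart, in 16 genes, 12 of them higher with shRNA2 and 4 lower, and in 3 of the 16 in both treatments taken separately. None was called against the control. EPX, the eosinophil peroxidase gene, had 144, 80.5 and 111 CPM with shRNA2, shRNA1 and the control in ATRA and 90.5, 69.1 and 111 CPM in DMSO. shRNA1 was the lowest library in each treatment, and shRNA2 exceeded it by 0.62 ± 0.07 (adjusted p = 1.9e-05). The control was below shRNA2 in ATRA and above it in DMSO, so its placement is that of the mean. The cell cycle transcription factor gene E2F2 had 13.2, 9.29 and 11.6 CPM in ATRA and 19.4, 14.0 and 23.4 CPM in DMSO (0.49 ± 0.10, adjusted p = 0.0088), again with shRNA1 lowest. The control lay between the hairpins in ATRA and above both in DMSO, so the placement of E2F2 held in neither treatment alone. TMEM64 differed by 0.66 ± 0.14 (adjusted p = 0.0072). The receptor tyrosine kinase gene LTK differed by 0.59 ± 0.10, but in ATRA both hairpins, at 3.68 and 3.04 CPM, lay below the control at 6.34 CPM. In DMSO LTK had 59.2, 36.44 and 36.25 CPM with shRNA2, shRNA1 and the control, so there shRNA1 was near the control. The placement of LTK is thus that of the mean and held in neither treatment alone. S100A9, a calprotectin subunit that is induced with granulocytic maturation, had 442, 623 and 606 CPM in ATRA and 0.479, 0.614 and 0.292 CPM in DMSO. Its difference of -0.49 ± 0.07 (adjusted p = 3.8e-04) therefore comes from ATRA, where shRNA1, not shRNA2, was near the control.

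The alpha-defensin genes DEFA1 and DEFA1B, antimicrobial peptides of azurophil granules, were lower with shRNA2 than with shRNA1. DEFA1 had 1195, 1633 and 951 CPM in ATRA and 2.37, 6.60 and 2.11 CPM in DMSO, and DEFA1B had 729, 932 and 536 CPM in ATRA. Both were highest with shRNA1 in both treatments, with differences of shRNA2 against shRNA1 of -0.67 ± 0.10 for DEFA1 (adjusted p = 4.7e-04) and -0.47 ± 0.09 for DEFA1B (adjusted p = 0.0053). DEFA1 was the 1 gene with shRNA2 between the control and shRNA1, and DEFA1B was among those with shRNA2 near the control. The copies are nearly identical and can share reads, so their separate values are uncertain and count as 1 observation.

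Gene lists were used to describe pathways, with 532 list members tested in 29 lists and 27 of them called, beside 250 of 12300 genes in all (2.03%). The median hairpin difference over all genes tested was 0.0021. Metallothioneins, small cysteine-rich proteins that bind zinc and copper, held the largest share of called members. Of 7 tested, 4 were higher with shRNA2 and none lower, and the median log2 fold change was 0.44. MT2A had 69.1, 50.5 and 39.6 CPM with shRNA2, shRNA1 and the control in ATRA and 58.3, 50.9 and 33.2 CPM in DMSO. The steps ran in the same order in both treatments (0.33 ± 0.07 between the hairpins, adjusted p = 0.0083; 0.81 ± 0.08 for shRNA2 against the control, adjusted p = 0.015). MT1A, at 0.36 ± 0.07 (adjusted p = 0.0031), MT1E, at 0.96 ± 0.22 (adjusted p = 0.022), and MT1M, at 0.92 ± 0.21 (adjusted p = 0.018), had the same order of constructs in both treatments. In the files the values of MT1A track those of MT2A closely, at 71.4, 51.9 and 40.6 CPM in ATRA, and those of MT1M track MT1E, so shared reads make the split between copies uncertain. All 7 tested members were graded, and 6 of 7 were ordered control, shRNA1, shRNA2 upward in both treatments, against 5.11% of all genes. Members can share reads, so they are not 7 independent genes. Metallothionein promoters carry metal response elements bound by the zinc sensor MTF1. The 250 bases before the start of MT2A are shown because this was the called member with a sequence in the RefSeq promoter table, at chr16:56608334-56608583 of GRCh38.p14 on the plus strand. Capitals mark the element core TGCACNC or TGCGCNC on either strand, a motif chosen after the list's values were seen.
MT2A: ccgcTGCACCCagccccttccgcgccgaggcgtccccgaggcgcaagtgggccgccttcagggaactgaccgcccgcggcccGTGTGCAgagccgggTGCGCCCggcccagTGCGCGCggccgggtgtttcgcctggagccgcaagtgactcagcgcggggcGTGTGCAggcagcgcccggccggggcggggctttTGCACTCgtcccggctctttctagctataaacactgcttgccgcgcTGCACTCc
The core occurred 7 times in this window, and it is common, with at least 1 match in 24.8% of all 35116 promoters. Both metallothioneins in the table held it.

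Eosinophil, basophil and mast cell markers held 3 called genes. Of 11 tested, PRG2, PRG3 and EPX were higher with shRNA2 and none was lower, beside 2.03% of all genes. The median was 0.28, and 8 of 11 members had a value above 0, beside 50.9% of all genes. PRG3, a homolog of the major basic protein, had 16.7, 6.96 and 6.2 CPM in ATRA, but under 1 CPM in every DMSO library (1.14 ± 0.19, adjusted p = 0.0011). The summed level of the list was 1253 CPM with shRNA2, 841.9 with shRNA1 and 830.1 in the control in ATRA, and 2587, 1897 and 1717 CPM in DMSO, most of it PRG2. Averaged over the treatments, the 3 called genes had different placements. shRNA1 was near the control for PRG2, PRG3 was graded, and shRNA2 was near the control for EPX. In ATRA alone, where PRG3 was above 1 CPM, PRG3 had shRNA1 near the control, as PRG2 did. Whether more cells of this kind or more RNA per cell gave these sums cannot be told apart in bulk libraries.

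Interferon-stimulated genes, the antiviral genes that are switched on by interferon signalling, had higher values with shRNA2 than with shRNA1 in DMSO but not in ATRA. Of 38 tested, IFI6 alone was called, a share close to that of all genes (2.03%), and 34 had a value above 0 (median 0.13). In DMSO 37 of 38 were above 0 with a median of 0.37, against 49.5% of all genes, whereas in ATRA 11 of 38 were above 0 with a median of -0.05, against 48.6% of all genes. Set against the control in DMSO, the median was 0.45 with shRNA2 and 0.11 with shRNA1, and in ATRA it was 0.017 and 0.082. The summed level of the list was 2202 CPM with shRNA2, 1708 with shRNA1 and 1575 in the control in DMSO, and 15220, 15710 and 14290 CPM in ATRA. With 1 library per hairpin and treatment there is no test of the difference between the treatments, and the members respond together, so their count is not a count of independent genes. IFI6, an interferon-induced mitochondrial protein, had 2070, 2034 and 1601 CPM in ATRA and 230, 159 and 145 CPM in DMSO (0.28 ± 0.07, adjusted p = 0.033). The log2 difference between the hairpins was 0.53 in DMSO and 0.03 in ATRA. The 250 bases before its start are shown because it was the called member, at chr1:27672193-27672442 of GRCh38.p14 on the minus strand. Capitals mark matches to the core of the interferon-stimulated response element, GAAA and GAAA spaced by any 2 bases, searched on both strands.
IFI6: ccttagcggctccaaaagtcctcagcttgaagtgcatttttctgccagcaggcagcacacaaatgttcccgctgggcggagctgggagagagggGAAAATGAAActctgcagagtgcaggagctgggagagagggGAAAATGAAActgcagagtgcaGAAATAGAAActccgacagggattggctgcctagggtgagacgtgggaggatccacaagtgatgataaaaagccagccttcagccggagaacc
The motif matched 3 times in this window. It was present in 23 of 39 promoters of the list (59.0%) and in 3.02% of all promoters.

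**Figure D4:**
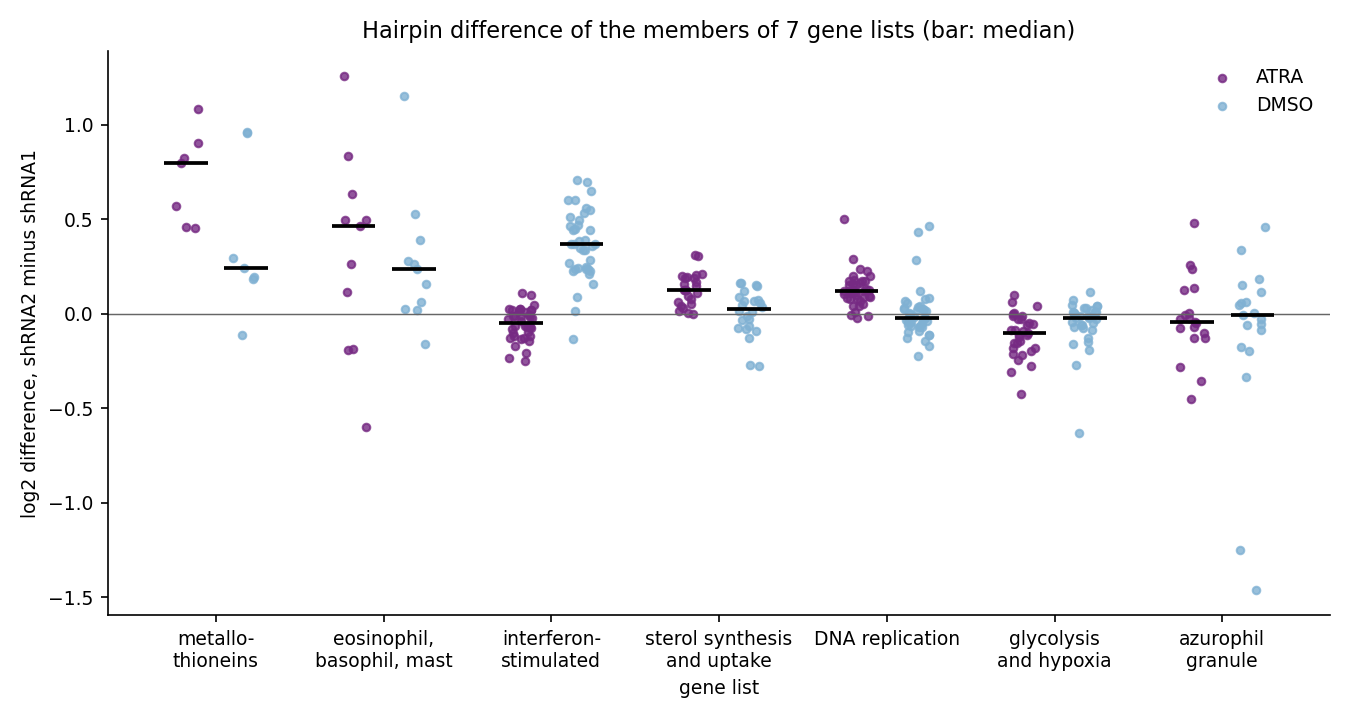
Log2 difference of shRNA2 minus shRNA1 for each tested member of 7 gene lists, ATRA left and DMSO right for each list, with a bar at the median. Metallothioneins lie above 0 in both treatments apart from 1 member in DMSO, whereas interferon-stimulated genes lie above 0 in DMSO (median 0.37) and around 0 in ATRA (median -0.05).

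In the lists of metabolism, stress responses and proliferation at most 2 members were called, and beside 2.03% of all genes called nothing about a list is read from such counts. Of 24 sterol synthesis and uptake genes, LSS, lanosterol synthase, was called higher (0.23 ± 0.06, adjusted p = 0.041). It had 117, 94.5 and 76.2 CPM in ATRA and 113, 102 and 97.6 CPM in DMSO. In ATRA all 24 were above 0, with a median of 0.13, and in DMSO 14 were, with a median of 0.03. Over all genes 48.6% were above 0 in ATRA, 49.5% in DMSO and 50.9% in the fit over both treatments. Members of a list can respond together, and each value within a treatment is 1 library against 1, with no test. The sterol element TCACNCCAC was found in 1 of 23 promoters of the list and in 0.883% of all, and not in that of LSS. Of 40 DNA replication genes E2F2 was called, and 33 had a value above 0 (median 0.06), 37 in ATRA and 17 in DMSO. None of 36 mitosis genes was called (median 0.012), nor was any of 14 replication-dependent histone genes (median 0.16), in which HIST1H1E stood at 0.36 (adjusted p = 0.37) and HIST1H3H at 0.29. BIRC5 at -0.15 and KIF2C at 0.13 were the mitosis genes furthest from 0. Of 31 glycolysis and hypoxia genes, LDHA, lactate dehydrogenase A, and NDRG1, a hypoxia-induced gene, were lower with shRNA2, and 4 of 31 had a value above 0 (median -0.04). LDHA had 454, 529 and 614 CPM in ATRA and 609, 735 and 582 CPM in DMSO (-0.24 ± 0.05, adjusted p = 0.0066). NDRG1 had 63.5, 78.6 and 128 CPM in ATRA and 63.7, 72.8 and 47.9 CPM in DMSO (-0.25 ± 0.06, adjusted p = 0.035). In both genes the control was above the hairpins in ATRA and below them in DMSO. TRIB3, an ATF4 target, was the only called gene of the 32 of the ATF4 amino acid response (-0.34 ± 0.06, adjusted p = 0.0013), and PDIA4 the only one of 21 of the unfolded protein response. RRM2B was the only one of 20 p53 targets and LDHA the only one of 30 MYC target and ribosome biogenesis genes. None of 14 heat shock genes was called (median 0.003), with HSPB1 at 0.18 and BAG3 at 0.11.

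Lists of myeloid maturation were examined next, beside 2.03% of all genes called. In the azurophil granule list PRTN3 was higher and DEFA1 and DEFA1B were lower. In it 8 of 19 members had a value above 0 (median -0.01), beside 50.9% of all genes. None was called of 12 specific granule genes (median -0.006), 9 gelatinase granule and secretory vesicle genes (0.026) or 9 NADPH oxidase genes (0.019). The furthest from 0 in these lists were QPCT at -0.58 (adjusted p = 0.11), ORM1 at -0.56 (adjusted p = 0.26), FCN1 at 0.26 (adjusted p = 0.18), SLC11A1 at 0.23 (adjusted p = 0.90), NCF4 at -0.08 (adjusted p = 0.73) and CYBB at 0.08 (adjusted p = 0.75). Members of these lists that are missing from either table, among them LTF, CAMP and ELANE, were not analysed here. None of 27 immediate early genes was called (median 0.012), with KLF2 at -0.54 and EGR2 at -0.49, both under 5 CPM. HGF was the only called gene of 18 chemokines and cytokines. Among 28 myeloid transcription factors, IRF8 and RUNX3 were higher. RUNX3, a RUNX family factor, had 102, 88.5 and 99.4 CPM in ATRA and 70.4, 59.3 and 68.4 CPM in DMSO (0.23 ± 0.06, adjusted p = 0.042), with shRNA1 lowest in each treatment. CD38, an ectoenzyme, was the only called gene of 22 retinoic acid targets and was lower with shRNA2, at 285, 316 and 287 CPM in ATRA and 17.6, 23.2 and 19.8 CPM in DMSO (-0.25 ± 0.07, adjusted p = 0.047).

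Markers of other blood cells were also followed, beside 2.03% of all genes called. The lists are small, and nothing about a cell type is read from their counts of called members. Of 11 monocyte and macrophage markers, the fractalkine receptor gene CX3CR1 was higher, with 49.9, 34.1 and 27.7 CPM in ATRA and under 1 CPM in DMSO (0.56 ± 0.11, adjusted p = 0.0059). The median of the list was 0.19 and 9 of 11 values lay above 0, beside 50.9% of all genes. However, its summed level was 998.1, 967.8 and 986.9 CPM in ATRA and 487.0, 501.9 and 497.5 CPM in DMSO. CD14 was not listed in both tables and was not analysed here. Of 10 stem and progenitor markers FLT3 was higher and CD38 lower. None was called of 5 erythroid and megakaryocyte markers (median 0.11), with GATA1 at 0.19 and ITGA2B at 0.18, or of 6 lymphoid markers (median 0.0004), with GNLY at 0.33 and CD3D at -0.24. Summed lymphoid levels were 105.7, 109.9 and 114.6 CPM in ATRA and 58.3, 56.2 and 49.8 CPM in DMSO. The part of these markers in the differences above was not tested.

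Hairpin differences were also followed along the chromosomes, to see whether wide stretches of neighbouring genes moved together. Over 9788 genes with at least 5 CPM on average, windows of 40 neighbouring genes were placed by the order of RefSeq genes. The medians of 8891 such sliding windows ran from -0.06 to 0.065, and no window was displaced by more than 0.065 on the log2 scale. A median over 40 genes does not show smaller groups of neighbours that move together, and such groups were not examined.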

How the data were processed

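Gene counts from RNA-seq of the 6 NB4 libraries were analysed. The tools named per the submitters' processing notes are STAR, Picard 2.5.0, bcl2fastq and DESeq2, with GRCh37.p13 as the build and no roles stated. The counting tool and its use of strand are not given in these sources, so reads of overlapping and antisense genes cannot be told apart. The authors deposited raw counts per gene in 1 table per treatment, with 2 columns per library that are taken as its sequencing runs, and 12838 genes for ATRA and 12752 for DMSO. The same deposited tables hold the authors' normalized signal, log2 fold change, test score and p-value for knockdown against control, which were not used.

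The runs were summed, and 12301 genes listed in both tables were kept, with full table totals as library sizes. Between the runs of each library the counts varied beyond Poisson sampling, with a chi-square between 5.02 and 6.85 for each degree of freedom. Counts were filtered (filterByExpr), scaled with TMM and tested with edgeR 4.0.16 (quasi-likelihood, Benjamini-Hochberg over all genes tested, threshold 0.05) in R 4.3.3. shRNA2 against shRNA1 was fitted with treatment as a covariate in the 4 knockdown libraries (1 residual degree of freedom), and each hairpin against the control over all 6 libraries (2 residual degrees of freedom). Each comparison is of 2 libraries against 2, where an exact permutation test of 1 gene cannot go below p = 0.333. Standard errors were obtained from the log2 fold change and the F statistic, whose root is the size of the effect in standard errors. Differences within a treatment are between 1 library and 1, on log2 CPM with a prior count of 2, with no test. Alternatives were DESeq2 1.42.0, limma-voom (limma 3.58.1), the 6-library fit, total-count and RLE scaling, no filter, each run alone and each library left out. The edgeR step was tested on simulated counts.

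The members and gene lists were chosen with earlier results of these data known. Genes were named by rule: the SMARCD genes; of called genes with 1 sign in both treatments and at least 5 CPM, the 12 furthest in each direction and the 6 furthest in each placement; of each list, up to 4 called members or else 2 members; and the 4 genes with the most opposed treatments. Promoters are from RefSeq (GRCh38.p14), a build other than that of the counts, and were matched by symbol.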

Additional observations from a re-analysis of the deposited data

Results flagged for a closer look

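Many genes had opposite signs of the hairpin difference in ATRA and DMSO, since 6824 of 12300 had the same sign. The 4 most opposed are given here, as shRNA2 minus shRNA1 on the log2 scale. With 1 library for each hairpin and treatment this difference between treatments was not tested, and each gene was below 4 CPM in all 6 libraries. CHN2, a Rac GTPase-activating protein gene, stood at -1.04 in ATRA and 1.14 in DMSO. KIT, the stem cell factor receptor gene, stood at 2.24 in ATRA and -1.02 in DMSO, at under 1 CPM throughout. FNDC5 stood at -0.971 in ATRA and 1.11 in DMSO, and CAMSAP3 at 0.833 in ATRA and -0.891 in DMSO, both likewise under 1 CPM.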

How the results depend on the processing

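The number of genes called between shRNA2 and shRNA1 (250, with 160 higher and 90 lower) was 0, with 0 higher and 0 lower, in the 6-library fit, 49 with DESeq2 (29 higher, 20 lower), 404 with limma-voom (257 and 147) and 382 with RLE scaling (244 and 138). It was 237 with total counts, 251 without the filter, 246 from run 1 and 192 from run 2. Total counts shifted the median of all genes to 0.016. With 1 library left out of the 6-library fit it ranged from 0 to 239, with 0 to 152 higher and 0 to 87 lower. The high counts come from leaving out a control, whose partner is then fitted exactly, so that the error comes from the hairpins alone. Without a hairpin library, the other library of that hairpin is fitted exactly and is assumed to vary like the remaining 4. Members of the gene lists called (27) were 0 in the 6-library fit, 10 with DESeq2, 44 with RLE scaling and 0 to 26 with 1 library left out. For shRNA2 against the control (25 genes) DESeq2 gave 148, limma-voom 58, run 2 alone 45, and leaving out 1 library 1 to 735. It was 59 without shRNA2 in DMSO, 70 without shRNA2 in ATRA, 1 without either shRNA1 library, 735 without the control in DMSO and 231 without the control in ATRA. For shRNA1 against the control (1 gene) DESeq2 gave 12, limma-voom 2, and leaving out 1 library 0 to 149. The 61 graded genes were 97 with a limit of -0.10, 32 with a limit of -0.50 and 99 from ATRA alone. Of the 53 called genes among the 79 named, 53 kept the call with RLE scaling and without the filter, 50 from run 1, 49 with total counts, 47 with limma-voom, 42 from run 2, 24 with DESeq2 and 0 in the 6-library fit.

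Signs turned in 13 named genes, 2 of them called. With 1 library left out, LTK ranged from -0.0903 to 0.859 and NDRG1 from -0.652 to 0.0978. Among uncalled genes the ranges were -0.0237 to 0.376 for DDX58, -1.13 to 0.684 for ORM1, -0.68 to 0.661 for SLC11A1, -0.0886 to 0.258 for CYBB, -0.131 to 0.693 for GNLY, -0.955 to 1.06 for CHN2, -1.02 to 2.24 for KIT, -0.873 to 1.11 for FNDC5 and -1.0 to 0.932 for CAMSAP3. TICAM1 stood at 0.0427 and BAG3 at -0.0357 in run 2 alone, CYBB at -0.0257 with limma-voom and FNDC5 at -0.185 in run 1 alone. The cause was not tested. No paired analysis was possible because the labels give a single replicate number. The treatment term already compares the hairpins within treatments. Genes under 1 CPM are those whose values depth limits most.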
